A study of Mus musculus with 9 samples.

Results

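The 9 genes described here are Zbtb16 and a set of genes tied to glucocorticoid signalling, namely Tsc22d3, Fkbp5, Klf9, Klf15, Errfi1, Sgk1, Nr3c1 and Hsd11b1. They are 9 of the 57180 genes counted in mouse skin, were found by symbol, and all passed the filter on low counts that left 17168 genes for testing. Zbtb16 was picked because it was lower in irradiated saline-treated skin than in unirradiated skin in these same libraries, and the other 8 were listed beside it with those results known. The comparison of UVB-Saline with NoUVB is therefore given as a description, with no p-value for any of the 9.

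RNA was sequenced in 3 groups of 3 skin libraries. The BALB/c nude strain used is athymic and lacks mature T cells. UVB-hCOL3A1 skin was irradiated and given hCOL3A1, which the series title links to type III collagen supplied as mRNA. UVB-Saline skin was irradiated and given saline, and NoUVB skin was not irradiated, with no saline named for it. Back skin of the irradiated mice received UVB on alternate days over 8 weeks, at 60 mJ per square centimetre (1 minimal erythemal dose) for the first 2 weeks, 120 (2 doses) in week 3, 180 (3 doses) in week 4 and 240 (4 doses) after that. Collection is placed at day 28, but the start of that count is not given. The sources used here do not give the dose and route of hCOL3A1 or the age and sex of the mice, and no group received a carrier or another RNA alone. All libraries carry the same batch number. The labels do not tie libraries to animals, so the p-values cover spread among these samples only, and that spread may be technical. They also give no hour of collection, and the part that time of day had in any result was not tested.

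Glucocorticoids enter cells and bind the glucocorticoid receptor, which is held by chaperones in the cytoplasm until the hormone binds. The receptor then moves to the nucleus and binds an inverted repeat in DNA, the glucocorticoid response element, near genes such as Tsc22d3 and Fkbp5. Skin both responds to circulating hormone and regenerates active hormone locally through the enzyme made from Hsd11b1. Glucocorticoids are known in skin for restraining inflammation and for thinning the tissue with long use.

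Each library held 7640200 to 12927000 estimated counts. A single ribosomal RNA gene, Rn18s-rs5, took 7.71% of them in NoUVB 2 and 34.3% to 55.3% in the other 8 libraries, which left 4274100 to 7402200 counts for all other genes. All 8 interfollicular keratinocyte and all 8 fibroblast markers were detected in every library, as the label skin requires. Levels are given as CPM, counts relative to the TMM-scaled library size. CPM is not corrected for gene length, so levels are compared between groups and not between genes. The tissue was measured in bulk, so fewer cells of a type and less RNA per cell cannot be told apart.

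The receptor binds the palindrome whose letters are GNACANNNTGTNC, and the upstream sequences of the genes were searched for it on both strands. RefSeq start sites of build GRCm38.p6 were used, with windows of 250 bases before to 50 after each start. That build is not the GRCm39 the authors used. Windows were at hand for 7 of the 9 genes. Zbtb16 and Nr3c1 had none and were not searched. The full palindrome occurred at 1 of the 7, Sgk1, and at 5 of the 27 other glucocorticoid-induced genes with a window. Over all 32851 windows it occurred in 0.475%, and 0.537% of 27025 genes had it in at least 1 window. The 6 elements are shown with 10 bases on either side, because they let the sequence behind the term be read directly. Capitals mark the palindrome, and the distance is from its first base to the start site.

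Sgk1, chr10:21993692-21993724, + strand, 188 bases before the start: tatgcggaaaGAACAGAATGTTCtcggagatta
Map3k6, chr4:133240627-133240659, + strand, 181 bases before the start: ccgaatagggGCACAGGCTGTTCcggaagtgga
Slc10a6, chr5:103629544-103629576, - strand, 163 bases before the start: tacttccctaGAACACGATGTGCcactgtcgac
Mt1, chr8:94178985-94179017, + strand, 94 bases before the start: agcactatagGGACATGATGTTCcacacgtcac
Fam107a, chr14:8309875-8309907, - strand, 118 bases before the start: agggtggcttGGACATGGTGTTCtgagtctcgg
Txnip, chr3:96557775-96557807, + strand, 172 bases before the start: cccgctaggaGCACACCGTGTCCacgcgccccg

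The Sgk1 element lies at 1 of the 6 RefSeq starts of that gene, shown here with its 250 upstream bases as the example of such a promoter among the 9 genes.
Sgk1, chr10:21993640-21993889, + strand: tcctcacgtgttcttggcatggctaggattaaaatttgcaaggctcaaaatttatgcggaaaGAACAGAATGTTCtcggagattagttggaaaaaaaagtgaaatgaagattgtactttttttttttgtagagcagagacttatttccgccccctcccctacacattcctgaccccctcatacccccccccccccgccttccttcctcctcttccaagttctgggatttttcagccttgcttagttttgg

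The shorter 6-letter site AGAACA overlaps the full palindrome of Sgk1 and is common, in 19% of windows. A match is a description of these letters and does not show that the receptor binds there, and a window without one says only that the letters are not in it.

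Nr3c1 (ENSMUSG00000024431, chromosome 18) encodes the glucocorticoid receptor itself. Its level was 92.9, 93.0 and 94.9 CPM in UVB-hCOL3A1, 74.7, 86.9 and 75.1 CPM in UVB-Saline, and 81.8, 88.4 and 91.1 CPM in NoUVB. The 3 UVB-hCOL3A1 libraries lay above all others, within a narrow range, while UVB-Saline and NoUVB overlapped. The log2 change in UVB-Saline against NoUVB was -0.14 ± 0.09 (SE). In UVB-hCOL3A1 the log2 difference was 0.10 ± 0.09 against NoUVB (edgeR adjusted p = 0.696) and 0.25 ± 0.09 against UVB-Saline (edgeR adjusted p = 0.370, 95% interval 0.05 to 0.45). Neither passed the threshold of 0.05, and the first turned to -0.028 when counts were scaled by library size alone.

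Hsd11b1 (ENSMUSG00000016194, chromosome 1) encodes the enzyme that turns inactive cortisone or 11-dehydrocorticosterone into active hormone inside cells. It had 2.97, 8.19 and 4.75 CPM in UVB-hCOL3A1, 3.90, 3.78 and 6.83 CPM in UVB-Saline, and 6.39, 4.20 and 2.501 CPM in NoUVB. The 3 groups overlapped, and the values rest on 26 to 87 counts a library. The log2 change was 0.17 ± 0.44 (SE) in UVB-Saline against NoUVB. UVB-hCOL3A1 differed by 0.30 ± 0.44 from NoUVB (edgeR adjusted p = 0.831) and by 0.13 ± 0.43 from UVB-Saline (edgeR adjusted p = 0.941). The interval of the last was -0.83 to 1.096. Each of the 3 values changed sign when single libraries were left out.

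Zbtb16 (ENSMUSG00000066687, chromosome 9) encodes the zinc finger transcription factor PLZF, which is induced by glucocorticoids in human cells and also marks innate-like lymphocytes. Its level was 24.9, 32.0 and 37.8 CPM in UVB-hCOL3A1, 16.4, 17.6 and 14.9 CPM in UVB-Saline, and 52.1, 44.8 and 61.7 CPM in NoUVB. The 3 groups did not overlap at any point. NoUVB was highest, UVB-Saline lowest, and every UVB-hCOL3A1 library lay between them.

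The means were 31.6 ± 6.43 CPM in UVB-hCOL3A1, 16.3 ± 1.38 CPM in UVB-Saline and 52.9 ± 8.44 CPM in NoUVB (SD, n = 3 each). UVB-Saline was 3.24-fold lower than NoUVB, a log2 change of -1.70 ± 0.17 (SE), which is the difference the gene was picked for. The gene was 1 of 3 called there, and it was not called without NoUVB 1 or without UVB-Saline 2, with log2 changes of -1.72 and -1.76.

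The comparisons of UVB-hCOL3A1 each share a group with the comparison that chose Zbtb16. Against UVB-Saline the log2 difference was 0.95 ± 0.17, or 1.93-fold (95% interval 0.58 to 1.32, edgeR adjusted p = 0.166). Zbtb16 ranked 18 of 17168 genes by p there, and every UVB-hCOL3A1 library exceeded every UVB-Saline library. Against NoUVB the log2 difference was -0.75 ± 0.16 (95% interval -1.11 to -0.39, edgeR adjusted p = 0.145). Neither passed in this fit. With the replicate number as a block in edgeR, the value against UVB-Saline was 0.93 and passed (adjusted p = 0.0463). The value against NoUVB did not pass with the block (edgeR adjusted p = 0.0590). Both passed with DESeq2 (adjusted p = 0.00126 against UVB-Saline and 0.0143 against NoUVB) and without the low-count filter (edgeR adjusted p = 0.000234 and 0.00253). Neither passed in any other alternative. With limma voom the adjusted p was 0.165 and 0.161, and with library size alone the edgeR adjusted p was 0.557 and 0.319. Leaving out 1 library gave edgeR adjusted p of 0.0566 to 0.564 and 0.0508 to 0.359.

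Summed markers of some other cell types also differed in level between these groups. The summed level of 10 adipocyte markers ran over 906 to 1534 CPM in UVB-hCOL3A1, 519 to 727 CPM in UVB-Saline and 673 to 1613 CPM in NoUVB. The summed 8 fibroblast markers ran over 5388 to 6627 CPM in UVB-hCOL3A1, 4355 to 4558 CPM in UVB-Saline and 4729 to 5663 CPM in NoUVB. In both lists UVB-Saline lay below UVB-hCOL3A1 without overlap, and its fibroblast sum also lay below that of NoUVB. Most of the fibroblast sum came from the collagen genes Col1a1 and Col1a2, with means of 2622.5 and 1244 CPM in UVB-Saline. In UVB-Saline against NoUVB all 10 adipocyte markers were negative, with a median of -0.96, although the summed ranges overlapped. In that comparison 7 of the 8 fibroblast markers were negative, with a median of -0.18. Of all genes 48.2% were negative. Pdgfra (-0.03 ± 0.14, SE) and Thy1 (0.01 ± 0.13) were near 0 there.

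The summed 10 skeletal muscle markers ran over 978 to 1556 CPM in UVB-hCOL3A1, 239 to 792 CPM in UVB-Saline and 364 to 1231 CPM in NoUVB. Adipoq, the adipocyte hormone adiponectin, averaged 60.8 ± 27.2 CPM in UVB-hCOL3A1, 24.8 ± 11.1 CPM in UVB-Saline and 55.1 ± 34.6 CPM in NoUVB (SD, n = 3 each). The log2 difference of Adipoq was 1.29 ± 0.55 in UVB-hCOL3A1 against UVB-Saline (edgeR adjusted p = 0.441) and 0.14 ± 0.53 against NoUVB (edgeR adjusted p = 0.948). None of these markers was at 0 in any library.

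The 10 markers of NK, T and innate lymphoid cells cover more cells than the innate-like lymphocytes that Zbtb16 marks. They summed to 31.4 to 52.2 CPM in UVB-hCOL3A1, 22.2 to 64.3 CPM in UVB-Saline and 21.2 to 35.8 CPM in NoUVB. The summed ranges of the 3 groups overlapped. Of the 9 markers tested, 4 lay wholly above NoUVB in UVB-hCOL3A1 and 0 wholly below, where 10.7% of all genes lay above and 10.7% below. Up to 2 of the 10 were at 0 in a NoUVB library. The part of these cell types in the Zbtb16 levels was not tested.

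**Figure D1:**
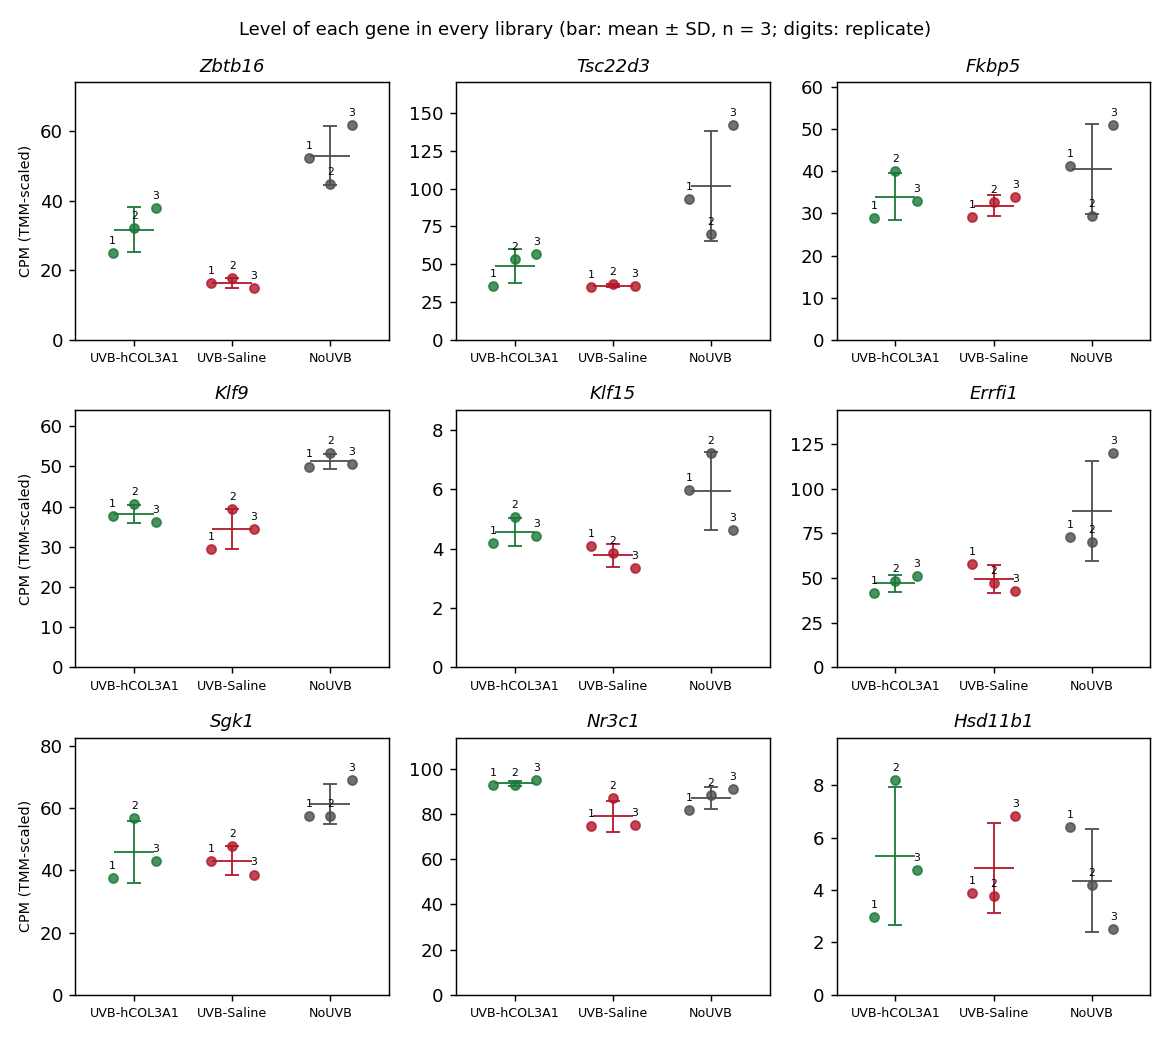
Level of each of the 9 genes in every library, in TMM-scaled CPM on linear axes that start at 0, with the groups UVB-hCOL3A1, UVB-Saline and NoUVB from left to right; points are libraries, digits replicate numbers, and bars the mean ± SD (n = 3). Zbtb16 shows 3 separate levels (means 31.6, 16.3 and 52.9 CPM), while Tsc22d3 and Errfi1 are high in NoUVB and have a wide spread there.

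Tsc22d3 (ENSMUSG00000031431, chromosome X) encodes GILZ, a leucine zipper protein that carries much of the anti-inflammatory action of glucocorticoids. It had 35.5, 53.6 and 56.3 CPM in UVB-hCOL3A1, 34.9, 36.6 and 35.6 CPM in UVB-Saline, and 93.0, 70.1 and 141.9 CPM in NoUVB. All 6 irradiated libraries lay below all 3 NoUVB libraries. UVB-hCOL3A1 1 lay within the range of UVB-Saline, and the other 2 lay above it. The log2 change in UVB-Saline against NoUVB was -1.51 ± 0.26 (SE).

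UVB-hCOL3A1 differed from NoUVB by -1.07 ± 0.25 on the log2 scale (edgeR adjusted p = 0.180). The difference from UVB-Saline was 0.44 ± 0.26 (edgeR adjusted p = 0.556), with an interval from -0.14 to 1.02. NoUVB 3, at 141.9 CPM, was the highest of the 9 libraries for Tsc22d3, and also for Zbtb16, Errfi1, Fkbp5 and Sgk1.

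Fkbp5 (ENSMUSG00000024222, chromosome 17) encodes a co-chaperone that lowers the hormone affinity of the receptor and so closes a feedback loop. It had 29.0, 40.0 and 32.9 CPM in UVB-hCOL3A1, 29.0, 32.6 and 33.8 CPM in UVB-Saline, and 41.3, 29.5 and 51.0 CPM in NoUVB. The groups overlapped, since NoUVB 2 was as low as the irradiated libraries. The log2 change was -0.35 ± 0.19 (SE) in UVB-Saline against NoUVB. UVB-hCOL3A1 differed by -0.26 ± 0.19 from NoUVB (edgeR adjusted p = 0.640) and by 0.09 ± 0.19 from UVB-Saline (edgeR adjusted p = 0.90). Without NoUVB 3 the values of Fkbp5 against NoUVB were -0.045 in UVB-hCOL3A1 and -0.16 in UVB-Saline, and without NoUVB 2 they were -0.44 in UVB-hCOL3A1 and -0.54 in UVB-Saline.

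The Krüppel-like factors Klf9 and Klf15 are transcription factors and direct receptor targets. Klf9 (ENSMUSG00000033863, chromosome 19), which is known in human keratinocytes as a clock- and cortisol-dependent brake on proliferation, had 37.7, 40.6 and 36.2 CPM in UVB-hCOL3A1, 29.6, 39.4 and 34.4 CPM in UVB-Saline, and 49.995, 53.4 and 50.5 CPM in NoUVB. The NoUVB libraries were close together and above all irradiated ones, which overlapped each other. The log2 change was -0.57 ± 0.11 (SE) in UVB-Saline against NoUVB. In UVB-hCOL3A1 the log2 difference was -0.43 ± 0.11 against NoUVB (edgeR adjusted p = 0.194) and 0.15 ± 0.11 against UVB-Saline (edgeR adjusted p = 0.667). The last value for Klf9 was 0.049 without UVB-Saline 1 and 0.27 without UVB-Saline 2.

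Klf15 (ENSMUSG00000030087, chromosome 6), a regulator of amino acid and lipid metabolism, had 4.19, 5.08 and 4.43 CPM in UVB-hCOL3A1, 4.11, 3.86 and 3.36 CPM in UVB-Saline, and 5.97, 7.23 and 4.62 CPM in NoUVB. UVB-Saline lay below the other groups without overlap, but the gaps were small and rest on 31 to 81 counts a library. The log2 change was -0.65 ± 0.21 (SE) in UVB-Saline against NoUVB. UVB-hCOL3A1 differed by -0.38 ± 0.21 from NoUVB (edgeR adjusted p = 0.515) and by 0.27 ± 0.21 from UVB-Saline (edgeR adjusted p = 0.675). The difference of Klf15 from NoUVB was -0.20 without NoUVB 2.

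The upstream 250 bases of Klf15 are shown because they hold the E-box CACGTG, the site of the clock proteins BMAL1 and CLOCK, which clock genes described further on also use. Capitals mark the E-boxes, which begin 228 and 172 bases before the start, and a further one begins 3 bases before it and crosses it.
Klf15, chr6:90462326-90462575, + strand: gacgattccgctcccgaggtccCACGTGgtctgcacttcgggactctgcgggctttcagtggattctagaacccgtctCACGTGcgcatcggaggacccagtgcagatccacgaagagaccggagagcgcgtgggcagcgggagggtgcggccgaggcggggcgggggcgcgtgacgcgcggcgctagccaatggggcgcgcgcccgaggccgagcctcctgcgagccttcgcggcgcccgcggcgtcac
At least 1 CACGTG was present in 7.15% of all windows. Among the 7 genes with a window, which leave out Zbtb16 and Nr3c1, Fkbp5 and Sgk1 also had 1 each.

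Errfi1 (ENSMUSG00000028967, chromosome 4) encodes MIG6, a feedback inhibitor of the EGF receptor, whose signalling drives keratinocyte growth. It had 41.8, 48.1 and 50.9 CPM in UVB-hCOL3A1, 58.0, 47.4 and 42.6 CPM in UVB-Saline, and 72.7, 69.9 and 120.1 CPM in NoUVB. The irradiated groups overlapped, and both lay below NoUVB. The log2 change was -0.83 ± 0.21 (SE) in UVB-Saline against NoUVB and the log2 difference -0.90 ± 0.21 in UVB-hCOL3A1 against NoUVB (edgeR adjusted p = 0.165).

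Without NoUVB 3 these values for Errfi1 were -0.54 and -0.60. The log2 difference between UVB-hCOL3A1 and UVB-Saline was -0.07 ± 0.21, with an interval from -0.54 to 0.40 (edgeR adjusted p = 0.933).

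Sgk1 (ENSMUSG00000019970, chromosome 10) encodes a kinase that controls ion channels and cell survival. It had 37.4, 56.8 and 43.2 CPM in UVB-hCOL3A1, 43.0, 47.8 and 38.7 CPM in UVB-Saline, and 57.7, 57.5 and 69.0 CPM in NoUVB. UVB-hCOL3A1 2 came within 1 CPM of the lowest NoUVB library, and the other 5 irradiated libraries were lower. The log2 change was -0.51 ± 0.15 (SE) in UVB-Saline against NoUVB. UVB-hCOL3A1 differed by -0.42 ± 0.15 from NoUVB (edgeR adjusted p = 0.325) and by 0.08 ± 0.15 from UVB-Saline (edgeR adjusted p = 0.886). The difference of Sgk1 from NoUVB was -0.28 without UVB-hCOL3A1 1.

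Across the 9 genes, the log2 change in UVB-Saline against NoUVB was negative for 8, as it was for 48.2% of all 17168 genes. The median was -0.57 over the 9 and 0.01 over all genes. The exception was Hsd11b1. One gene, Zbtb16, was called, where 0.0175% of all genes were called, and 6 had UVB-Saline wholly below NoUVB, where 6.61% of all genes did. Since the genes were chosen on this comparison, these counts describe the choice.

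In UVB-hCOL3A1 against NoUVB, the log2 difference was negative for 7 of the 9 genes and for 50.8% of all genes. The median was -0.42 over the 9 and -0.01 over all genes. With edgeR 0 of 9 were called, where 0.0408% of all genes were, and 5 had an unadjusted p under 0.05 with a lower level, where 5.52% of all genes did. DESeq2 called 3 (Zbtb16, Tsc22d3 and Errfi1), where it called 269 of 15545 genes in all. With limma voom 0 of the 9 and 0 of 17168 genes were called. The groups did not overlap for 5 genes that were lower (Zbtb16, Tsc22d3, Klf9, Errfi1 and Sgk1), where 10.7% of all genes were, and for Nr3c1, which was higher, where 10.7% also were. This comparison shares the NoUVB libraries with the one that chose the genes.

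In UVB-hCOL3A1 against UVB-Saline, the log2 difference was positive for 8 of the 9 genes and negative for 1, as it was for 53.9% of all genes. The median was 0.15 over the 9 and -0.02 over all genes. With edgeR 0 of 9 were called, as were 0% of all genes, and 2 (Zbtb16 and Nr3c1) had an unadjusted p under 0.05 with a higher level, where 5.97% of all genes did. DESeq2 called 1, Zbtb16, where it called 173 of 12102 genes in all. With limma voom 0 of the 9 and 0 of 17168 genes were called. UVB-hCOL3A1 lay wholly above UVB-Saline for 3 genes, Zbtb16, Klf15 and Nr3c1, where 8.95% of all genes did. The UVB-Saline libraries are shared with the comparison that chose the genes. Without UVB-hCOL3A1 2 the positive count was 5, with Fkbp5, Sgk1 and Hsd11b1 negative as well as Errfi1.

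**Figure D2:**
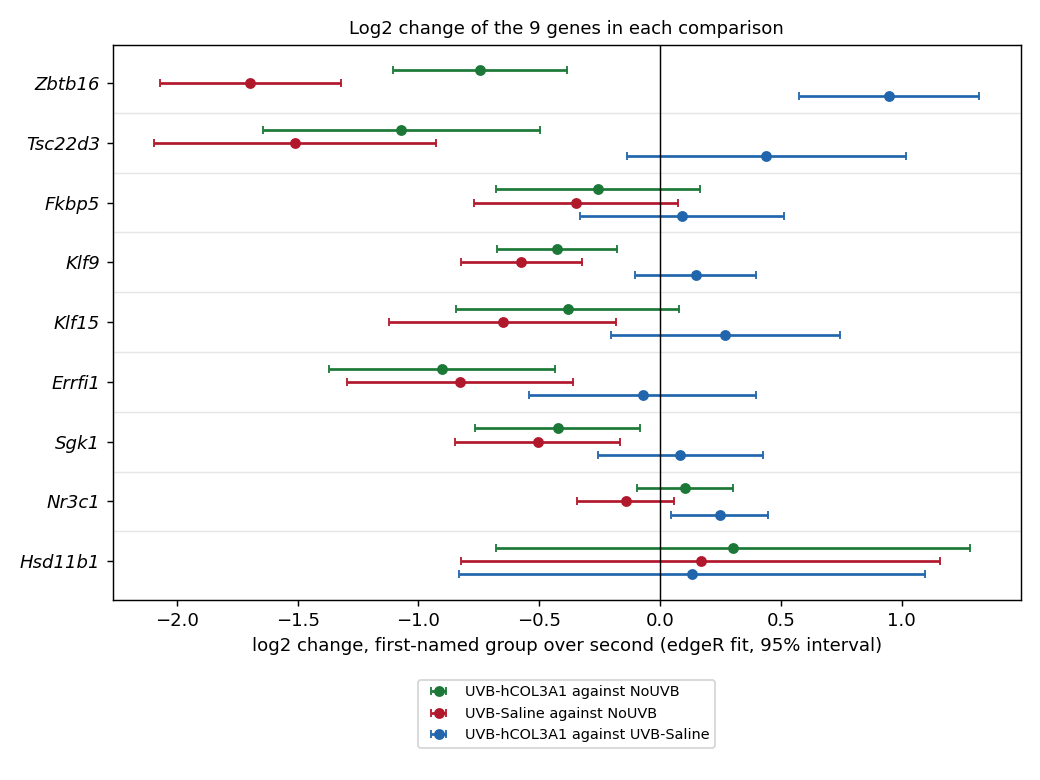
Fitted log2 change of the 9 genes in the 3 comparisons (points, with 95% intervals from the edgeR fit), the group named first over the group named second, with 0 marked by the vertical line. Zbtb16 (0.95) and Nr3c1 (0.25) are the genes whose interval for UVB-hCOL3A1 against UVB-Saline lies above 0, and the Errfi1 value there is -0.07.

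A list of 30 other glucocorticoid-induced genes, of which 29 were tested, had 25 negative log2 differences in UVB-hCOL3A1 against NoUVB, where 50.8% of all genes were negative, with a median of -0.35. In UVB-Saline against NoUVB 26 of 29 were negative, where 48.2% of all genes were, with a median of -0.34. With edgeR 0 of 29 were called in either. An unadjusted p under 0.05 with a lower level was found for 9 in UVB-hCOL3A1 against NoUVB, where 5.52% of all genes had one, and for 11 in UVB-Saline against NoUVB, where 4.6% did. Between UVB-hCOL3A1 and UVB-Saline 15 were positive and 14 negative, where 53.9% of all genes were negative. The median was 0.00 and 0 were called, as were 0% of all genes. There 2 had an unadjusted p under 0.05 with a higher level, where 5.97% of all genes did. The comparisons share libraries, so their counts are not independent.

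Per1, a clock gene with a receptor binding site of its own, had 39.0, 51.4 and 58.4 CPM in UVB-hCOL3A1, 65.0, 46.9 and 46.5 CPM in UVB-Saline, and 104.1, 96.7 and 112.5 CPM in NoUVB. Both irradiated groups lay wholly below NoUVB and overlapped each other. The log2 difference was -1.08 ± 0.17 in UVB-hCOL3A1 against NoUVB (edgeR adjusted p = 0.0810) and -0.09 ± 0.17 against UVB-Saline (edgeR adjusted p = 0.885).

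Cebpd, a transcription factor of the acute-phase response, averaged 9.66 ± 2.496 CPM in UVB-hCOL3A1, 9.61 ± 1.76 CPM in UVB-Saline and 19.3 ± 0.64 CPM in NoUVB (SD, n = 3 each), and differed by -1.004 ± 0.20 between UVB-hCOL3A1 and NoUVB (edgeR adjusted p = 0.132). Map3k6, a stress kinase whose promoter element is shown above, averaged 25.6 ± 2.02 CPM in UVB-hCOL3A1, 31.5 ± 6.15 CPM in UVB-Saline and 41.3 ± 4.08 CPM in NoUVB, with a log2 difference of -0.69 ± 0.15 from NoUVB (edgeR adjusted p = 0.145). Dusp1, a phosphatase that switches off MAP kinases, averaged 60.9 ± 14.3 CPM in UVB-hCOL3A1, 64.3 ± 5.58 CPM in UVB-Saline and 116.4 ± 48.7 CPM in NoUVB, where NoUVB 3 stood at 172.6 CPM. Its log2 difference from NoUVB was -0.94 ± 0.28 in UVB-hCOL3A1 (edgeR adjusted p = 0.262) and -0.53 without NoUVB 3.

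The genes with an unadjusted p under 0.05 in UVB-hCOL3A1 against UVB-Saline were Il1r2 and Glul. Il1r2, the decoy receptor of interleukin 1, had 6.18, 8.19 and 5.40 CPM in UVB-hCOL3A1, 4.52, 4.44 and 2.28 CPM in UVB-Saline, and 7.39, 9.56 and 8.18 CPM in NoUVB, from 21 to 107 counts a library, with a log2 difference of 0.80 ± 0.26 from UVB-Saline (edgeR adjusted p = 0.332). Glul, which makes glutamine, had 181.0, 296.1 and 167.1 CPM in UVB-hCOL3A1, 131.8, 164.3 and 130.7 CPM in UVB-Saline, and 206.5, 237.5 and 181.8 CPM in NoUVB, with a log2 difference of 0.59 ± 0.21 (edgeR adjusted p = 0.370). For both genes UVB-hCOL3A1 overlapped NoUVB and lay wholly above UVB-Saline. The Glul value was 0.29 without UVB-hCOL3A1 2, the library with 296.1 CPM.

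**Figure D3:**
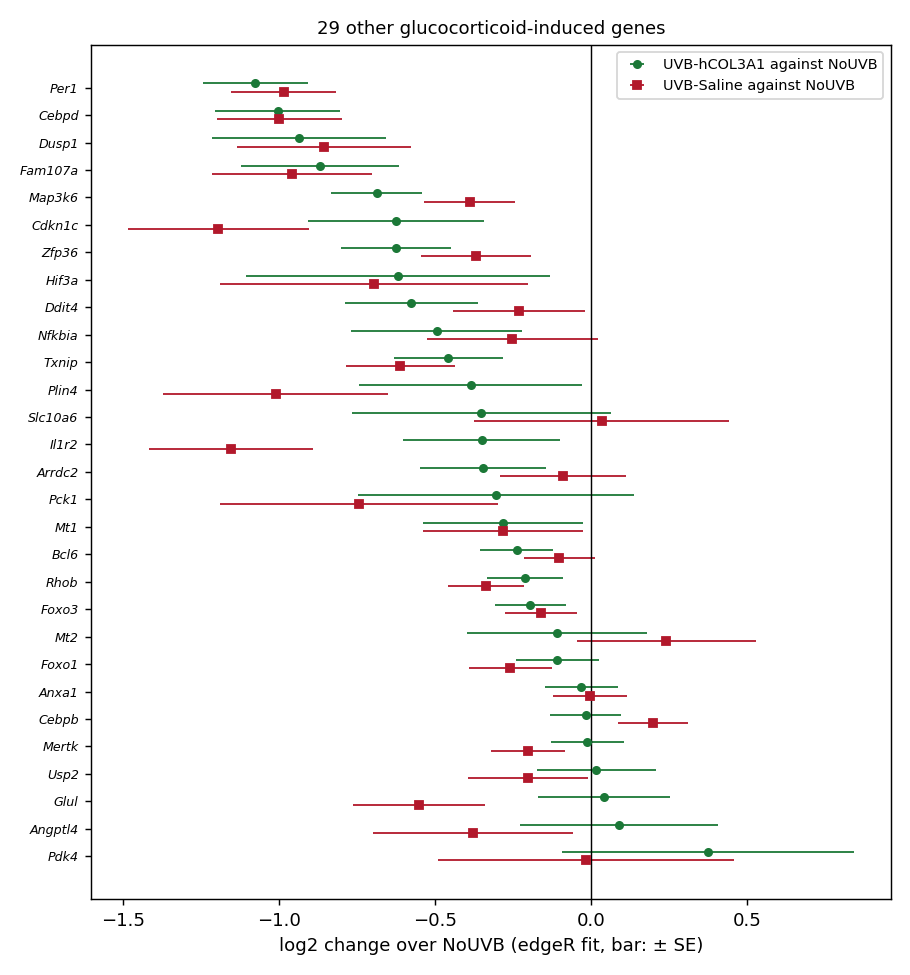
Fitted log2 change over NoUVB of the 29 tested genes of the glucocorticoid-induced list (bars: ± SE), for UVB-hCOL3A1 (circles) and UVB-Saline (squares), in order of the UVB-hCOL3A1 value. Of the circles 25 lie below 0 and of the squares 26, with Per1 at the top; both series share the NoUVB libraries.

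The receptor's chaperones, coactivators and related steroid receptors, 15 genes, were all tested, and 0 were called by edgeR in any comparison. Their median log2 difference was -0.03 in UVB-hCOL3A1 against NoUVB (0 with an unadjusted p under 0.05), -0.09 in UVB-Saline against NoUVB (2, both lower) and 0.10 in UVB-hCOL3A1 against UVB-Saline (1, higher). Over all genes, in that order, 11.8%, 9.54% and 11.3% had an unadjusted p under 0.05 in either direction. Nr3c2, the mineralocorticoid receptor, which also binds glucocorticoids, had 11.8, 11.5 and 14.4 CPM in UVB-hCOL3A1, 9.65, 10.5 and 10.6 CPM in UVB-Saline, and 12.9, 17.4 and 15.7 CPM in NoUVB. UVB-Saline was wholly below both other groups. The log2 difference of UVB-hCOL3A1 was -0.30 ± 0.15 against NoUVB (edgeR adjusted p = 0.467) and 0.29 ± 0.15 against UVB-Saline (edgeR adjusted p = 0.506).

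Nrip1, a corepressor, had a log2 difference of -0.21 ± 0.12 between UVB-hCOL3A1 and NoUVB (edgeR adjusted p = 0.520). Fkbp4, the co-chaperone that opposes Fkbp5, averaged 47.4 ± 1.19 CPM in UVB-hCOL3A1, 51.4 ± 10.1 CPM in UVB-Saline and 48.9 ± 2.56 CPM in NoUVB (SD, n = 3 each).

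Of 14 genes of local steroid supply 7 passed the filter, and 0 were called by edgeR in any comparison. Their median log2 difference was 0.00 in UVB-hCOL3A1 against NoUVB, -0.19 in UVB-Saline against NoUVB and 0.13 in UVB-hCOL3A1 against UVB-Saline. At an unadjusted p under 0.05 there were 0 in the first, 1 in the second and 3 in the third. The shares of all genes at that level were 11.8%, 9.54% and 11.3%. Hsd11b2, the enzyme that opposes Hsd11b1, had 3 to 11 counts a library and was not tested.

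Cyp17a1, a steroid hydroxylase, had 3.35, 2.73 and 3.56 CPM in UVB-hCOL3A1, 8.21, 9.62 and 3.14 CPM in UVB-Saline, and 5.11, 4.46 and 6.64 CPM in NoUVB, from 29 to 117 counts a library. Its log2 difference in UVB-hCOL3A1 was -1.13 ± 0.36 against UVB-Saline (edgeR adjusted p = 0.313) and -0.75 ± 0.37 against NoUVB (edgeR adjusted p = 0.462). Mc2r, the corticotropin receptor, which adipocytes also carry in mice, had 1.14, 4.42 and 1.94 CPM in UVB-hCOL3A1, 0.21, 0.41 and 0.43 CPM in UVB-Saline, and 0.99, 3.21 and 0.67 CPM in NoUVB, from 2 to 47 counts a library. Its log2 difference from UVB-Saline was 2.77 ± 0.76 (edgeR adjusted p = 0.260). In that comparison all 10 adipocyte markers were positive with a median of 0.99, where 53.9% of all genes were negative. The part of adipocytes in the Mc2r levels was not tested.

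Glucocorticoids and the circadian clock share targets, and a list of 16 clock genes was tested. Per1, also a clock gene, was counted in the glucocorticoid-induced list and is not among these 16. In UVB-Saline against NoUVB 13 were negative (median -0.34), where 48.2% of all genes were. There edgeR called 1 of them, Per2, where 0.0175% of all genes were called. In UVB-hCOL3A1 against NoUVB 11 were negative (median -0.25), where 50.8% of all genes were. In that comparison 0 were called, and 7 had an unadjusted p under 0.05 with a lower level, where 5.52% of all genes did. In UVB-hCOL3A1 against UVB-Saline 11 were positive and 5 negative (median 0.07), where 53.9% of all genes were negative. There 0 were called, as were 0% of all genes, and 1 had an unadjusted p under 0.05, where 11.3% of all genes did.

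Per3 differed by -0.60 ± 0.12 between UVB-hCOL3A1 and NoUVB (edgeR adjusted p = 0.126), and Tef, an output factor of the clock, by -0.40 ± 0.09 (edgeR adjusted p = 0.145). Bhlhe41, a repressor in the clock, averaged 16.4 ± 0.72 CPM in UVB-hCOL3A1 and 13.0 ± 3.84 CPM in UVB-Saline, and Nr1d1, another, averaged 45.9 ± 11.3 CPM in UVB-hCOL3A1 and 35.9 ± 4.64 CPM in UVB-Saline (SD, n = 3 each).

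Per2, a core repressor of the clock, was also the gene whose pattern over the 9 libraries was most like that of Zbtb16. Likeness was the root mean square difference of log2 CPM after each gene was centred on its own mean, so 0 would be the same pattern. It was 0.253 for Per2, and a gene with the same level in all 9 libraries would score 0.711. Per2 had 17.4, 26.2 and 21.3 CPM in UVB-hCOL3A1, 12.5, 12.9 and 14.96 CPM in UVB-Saline, and 31.0, 32.5 and 35.5 CPM in NoUVB. As for Zbtb16, the 3 groups did not overlap and UVB-hCOL3A1 lay between the others. The log2 difference of UVB-hCOL3A1 was 0.68 ± 0.16 against UVB-Saline (edgeR adjusted p = 0.206) and -0.61 ± 0.15 against NoUVB (edgeR adjusted p = 0.176).

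Tsc22d3 came next, at 0.261, the nearest of the other 8 genes. Errfi1 was at 0.475, and Klf9, Sgk1, Klf15 and Fkbp5 were between 0.511 and 0.589. Nr3c1 was at 0.651 and Hsd11b1 at 0.934. Genes that vary little over the libraries lie near the 0.711 of an even level whatever their pattern. The genes outside the set that followed Per2 were Zic4 (0.297), Cubn (0.324), Adcyap1r1 (0.340), Cadm3 (0.351) and Osr2 (0.352). Zic4 and Osr2 encode zinc finger transcription factors, Cubn an endocytic receptor, Adcyap1r1 the receptor of the neuropeptide PACAP and Cadm3 a cell adhesion molecule.

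Adcyap1r1 had 6.18, 6.30 and 7.88 CPM in UVB-hCOL3A1, 4.31, 7.07 and 5.10 CPM in UVB-Saline, and 17.3, 16.6 and 15.9 CPM in NoUVB, so its irradiated groups overlapped. Cadm3 had 37.1, 49.8 and 44.5 CPM in UVB-hCOL3A1, 24.6, 31.2 and 24.4 CPM in UVB-Saline, and 52.6, 51.0 and 49.8 CPM in NoUVB, so UVB-hCOL3A1 2 came within 1 CPM of the lowest NoUVB library. Zic4 was very low, with 0.84, 1.22 and 1.51 CPM in UVB-hCOL3A1 and 0.41, 0.74 and 0.33 CPM in UVB-Saline. Cubn had 2.44, 2.63 and 3.02 CPM in UVB-hCOL3A1 and 2.36, 1.64 and 1.84 CPM in UVB-Saline. Likeness of this kind is a description over 9 libraries that share the same groups. The 6 genes were picked for it, so a group order shared with Zbtb16 partly describes the choice.

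**Figure D4:**
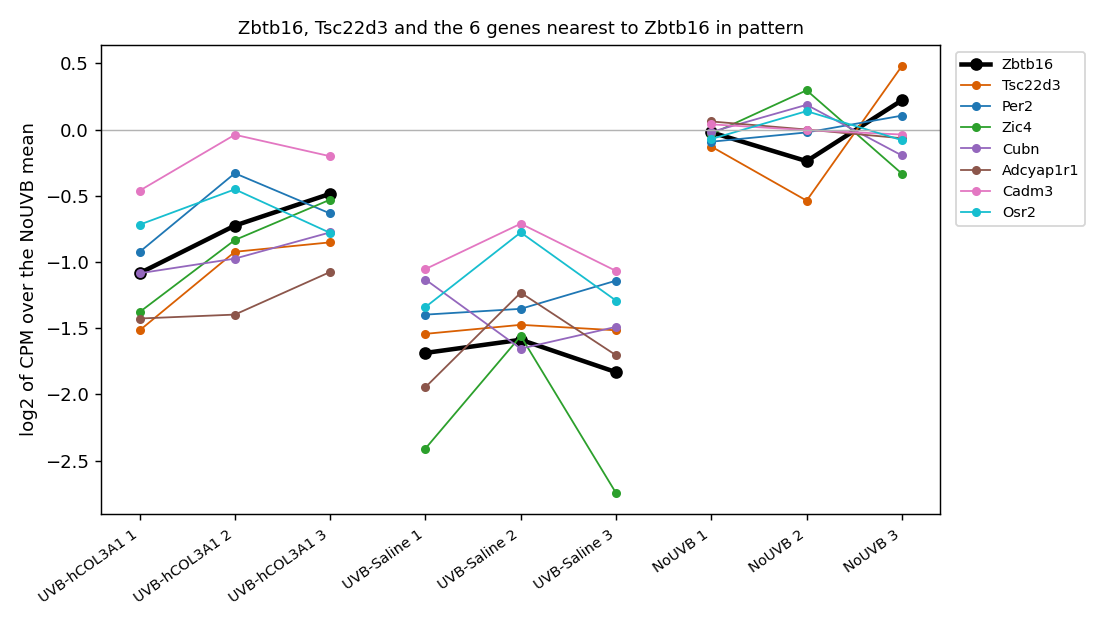
Level of Zbtb16 (thick line), Tsc22d3 and the 6 genes most like Zbtb16, as log2 CPM relative to the mean of each gene in NoUVB, in each library of UVB-hCOL3A1, UVB-Saline and NoUVB; lines join the libraries of a group only to show which points belong to a gene. Zbtb16, Per2, Zic4, Cubn and Cadm3 keep UVB-hCOL3A1 between UVB-Saline and NoUVB, while Tsc22d3, Adcyap1r1 and Osr2 overlap between the irradiated groups.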

How the data were processed

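Estimated counts for 57180 genes in 9 libraries came as 1 table that the authors deposited. Per the submitters' processing notes the tools were STAR 2.7.11b, Bowtie2 2.5.4, RSEM 1.3.3, fastp 0.23.4 and DESeq2 1.44.0, with build GRCm39. Their roles, the annotation and strandedness were not given in those notes as used here, so genes that overlap on opposite strands cannot be told apart. In GENCODE M21 no exon of the 9 genes overlapped another gene. The other genes named here were not searched for overlaps in this way, and Txnip is known to overlap the antisense gene Gm15441. Estimated counts were rounded (11.1% to 14.0% of values per library were not whole). Genes with no symbol (525, with 0.0384% of counts) were kept.

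All 9 libraries, grouped by title, entered 1 quasi-likelihood fit in edgeR 4.0.16 (R 4.3.3), with filterByExpr, TMM, robust dispersion (common biological coefficient of variation 0.193, 6 residual degrees of freedom), two-sided tests and Benjamini-Hochberg adjustment over 17168 genes. A gene was called at an adjusted p under 0.05. For several low genes the range of counts per library is given beside the level. Alternatives were DESeq2 1.42.0, limma voom (limma 3.58.1), other scalings and filters, a replicate block and leaving out each library. No 2 libraries of a group agreed within sampling noise (chi-square per degree of freedom 8.95 to 269). This measure took in Rn18s-rs5, whose share was lowest in NoUVB 2. The pairs with that library gave 269 and 136, and the part of Rn18s-rs5 in the range was not tested.

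The genes, the lists and the naming rule were chosen with earlier results of these data known. The rule named the 9 genes, 8 further genes (Per1, Dusp1, Fkbp4, Hsd11b2, Nr3c2, Klf13, Tsc22d1 and Adipoq), up to 3 genes per list with the smallest p in each UVB-hCOL3A1 comparison, and the 6 genes most like Zbtb16. Pgr, Ncoa3, Crhr2, Cyp11a1, Il1a, Il1b, Icam1 and Nos2, also named by it and not called in any comparison, are not described, and the result of 1 further gene is not reported here. Lists are described by counts and medians, with no test.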

Additional observations from a re-analysis of the deposited data

How the results depend on the processing

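Of 513 alternative values for the 9 genes, 486 kept their direction and their side of the threshold, 15 came to pass it, 2 no longer did and 10 changed sign. The main fit called only Zbtb16 in UVB-Saline against NoUVB, so keeping the side mostly means staying uncalled. The 513 include that comparison, on which the genes were chosen, so its part of them describes the choice. For other genes picked by the naming rule, 551 alternative values were taken in the UVB-hCOL3A1 comparisons, where the main fit called none of them. Of these values 508 kept direction and side, 38 came to pass the threshold and 5 changed sign. Per1, Cebpd, Map3k6 and Dusp1 each passed against NoUVB in at least 1 alternative setting. Beside the 3, 7 and 0 genes called in UVB-Saline against NoUVB, UVB-hCOL3A1 against NoUVB and UVB-hCOL3A1 against UVB-Saline, library size alone called 100, 159 and 30, no low-count filter 73, 178 and 106, and DESeq2 96, 269 and 173. For UVB-hCOL3A1 against NoUVB limma voom called 0, non-robust dispersion 1 and the fit of only these 2 groups 407. Leaving out 1 library gave 0 to 12, 0 to 242 and 0 to 78 genes, with 242 and 78 without UVB-Saline 3, 144 in UVB-hCOL3A1 against NoUVB without UVB-Saline 1, and 0 there without any 1 NoUVB library or UVB-hCOL3A1 1 or 2. In UVB-Saline against NoUVB it gave 0 without NoUVB 1 or UVB-Saline 2 and 12 without UVB-Saline 1. The cause was not tested.

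Of the 9 genes, beside 1, 0 and 0 called, library size alone called 2, 1 and 0, no low-count filter 2, 1 and 1, DESeq2 4, 3 and 1, the fit of only 2 groups 1 (Klf9) in UVB-hCOL3A1 against NoUVB, and leaving out 1 library 0 to 1 in UVB-Saline against NoUVB. Library size alone moved the median of all genes in UVB-hCOL3A1 against NoUVB to -0.12. Zbtb16 had a log2 value of -0.74 without the filter and with DESeq2 in UVB-hCOL3A1 against NoUVB, and 0.95 and 0.96 against UVB-Saline. Leaving out 1 library it ranged over -1.81 to -1.58, -0.88 to -0.59 and 0.83 to 1.12 in the 3 comparisons.

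The labels do not say whether the replicate numbers pair the libraries. Same-numbered libraries had correlations of deviations of 0.02 to 0.12, 0.02 to 0.17 and 0.05 to 0.41 in the 3 comparisons. Differently numbered libraries were not correlated for comparison, so these values cannot decide whether a replicate number was shared. With the replicate block 61, 118 and 74 genes were called, with 2, 0 and 1 of the 9, and Zbtb16 passed at 0.93 in UVB-hCOL3A1 against UVB-Saline (adjusted p = 0.0463).

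Library size alone turned UVB-hCOL3A1 against NoUVB to -0.028 for Nr3c1 and -0.14 for Adipoq. Leaving out 1 library, log2 values spanned 0 for Adipoq in that comparison (-0.29 to 0.78), for Hsd11b1 in UVB-Saline against NoUVB (-0.16 to 0.50), UVB-hCOL3A1 against NoUVB (-0.16 to 0.66) and UVB-hCOL3A1 against UVB-Saline (-0.33 to 0.48), and in the last also for Errfi1 (-0.15 to 0.060), Fkbp5 (-0.043 to 0.22), Sgk1 (-0.10 to 0.24) and Per1 (-0.20 to 0.085). Of the 9 genes Hsd11b1 and Klf15 had the lowest counts, 26 to 87 and 31 to 81 a library.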

Other observations

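Relatives of the 9 genes, taken from the families of BTB zinc finger, Krüppel-like, TSC22, FKBP and SGK genes, numbered 30 tested of 32 listed. With edgeR 0 were called in any comparison. Their median log2 difference was -0.07 in UVB-hCOL3A1 against NoUVB (5 with an unadjusted p under 0.05), -0.05 in UVB-Saline against NoUVB (5) and -0.05 in UVB-hCOL3A1 against UVB-Saline (3). Over all genes, in that order, 11.8%, 9.54% and 11.3% had an unadjusted p under 0.05. Klf10, a factor induced by TGF-beta, had 36.8, 35.8 and 36.2 CPM in UVB-hCOL3A1, 29.2, 37.2 and 37.3 CPM in UVB-Saline, and 28.1, 28.0 and 26.3 CPM in NoUVB, so both irradiated groups lay above NoUVB. Its log2 difference was 0.40 ± 0.11 in UVB-hCOL3A1 against NoUVB (edgeR adjusted p = 0.205). In the same comparison Klf4 and Klf5, factors of the epidermis, had -0.32 ± 0.10 (edgeR adjusted p = 0.238) and -0.37 ± 0.11 (edgeR adjusted p = 0.237), and Klf13, a relative of Klf9, had -0.18 ± 0.09 (edgeR adjusted p = 0.447). Zbtb20 averaged 233.0 ± 20.4 CPM in UVB-hCOL3A1, 172.4 ± 17.5 CPM in UVB-Saline and 222.5 ± 14.6 CPM in NoUVB (SD, n = 3 each), a log2 difference of 0.43 ± 0.11 between UVB-hCOL3A1 and UVB-Saline (edgeR adjusted p = 0.222). Fkbp9 and Fkbp10, prolyl isomerases of the endoplasmic reticulum, had log2 differences of 0.29 ± 0.10 (edgeR adjusted p = 0.356) and 0.49 ± 0.20 (edgeR adjusted p = 0.411) there. Tsc22d1 averaged 56.6 ± 5.43 CPM in UVB-hCOL3A1, 54.0 ± 0.91 CPM in UVB-Saline and 59.7 ± 9.22 CPM in NoUVB, and its relative Tsc22d3 averaged 48.5 ± 11.3 CPM in UVB-hCOL3A1, 35.7 ± 0.85 CPM in UVB-Saline and 101.7 ± 36.7 CPM in NoUVB (SD, n = 3 each).

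Of 10 inflammatory genes known to be repressed by glucocorticoids 7 were tested, and 0 were called by edgeR in any comparison. Their median log2 difference was 0.21 in UVB-hCOL3A1 against NoUVB (1 with an unadjusted p under 0.05), 0.17 in UVB-Saline against NoUVB (1) and 0.20 in UVB-hCOL3A1 against UVB-Saline (0). The shares of all genes at that level were 11.8%, 9.54% and 11.3%. The gene with the small p was Ccl2, a chemokine for monocytes, at 4.803, 6.12 and 4.64 CPM in UVB-hCOL3A1, 2.87, 3.12 and 7.70 CPM in UVB-Saline, and 2.27, 1.70 and 1.73 CPM in NoUVB, from 16 to 71 counts a library. All 6 irradiated libraries lay above NoUVB, and the log2 difference of UVB-hCOL3A1 was 1.46 ± 0.38 (edgeR adjusted p = 0.192). The 8 macrophage markers summed to 597 to 886 CPM in UVB-hCOL3A1, 281 to 722 CPM in UVB-Saline and 479 to 484 CPM in NoUVB, and their part in the Ccl2 levels was not tested. The 8 hair follicle markers summed to 2443 to 5935 CPM in UVB-hCOL3A1, 1161 to 8489 CPM in UVB-Saline and 5878 to 11305 CPM in NoUVB. The 8 interfollicular keratinocyte markers summed to 4766 to 6819 CPM in UVB-hCOL3A1, 5312 to 8447 CPM in UVB-Saline and 4316 to 5780 CPM in NoUVB. For the 7 blood endothelium markers the sums were 227 to 290 CPM in UVB-hCOL3A1, 187 to 252 CPM in UVB-Saline and 203 to 332 CPM in NoUVB.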
